A study of Mus musculus with 16 samples.

Results

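Classic target genes of the nuclear receptor PPAR alpha whose products act outside the peroxisome were examined in kidney of mice labelled MFP2-/-. The 9 genes listed were Cyp4a10, Cyp4a14, Pdk4, Cpt1a, Fabp1, Angptl4, Plin2, Acot1 and Ucp2, and members were the array probes whose platform gene symbol was on that list. The platform annotation named 4 of the 9, of 9846 named genes tested: Cyp4a14, Fabp1 and Angptl4 with 1 probe each and Plin2 with 2 probes. Cyp4a10, Pdk4, Cpt1a, Acot1 and Ucp2 were not named there and are not analysed here. The question was whether kidney of these mice shows the transcript changes of PPAR alpha activation, since substrates of the missing enzyme may accumulate.

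Kidney RNA of 4 individual males labelled MFP2-/-, aged 15 weeks, was compared with 1 pool of RNA from 5 wild-type males of the Swiss strain SWR/Ola Hsd, also aged 15 weeks, on dual-channel cDNA arrays. The labels give the mutants no background strain beyond MFP2-/-, so genotype and strain cannot be told apart. Hsd17b4 encodes MFP2, multifunctional protein 2 of the peroxisome, an enzyme that shortens very long chain and branched chain fatty acids by beta-oxidation. Each mouse had 4 arrays, 2 for each dye orientation (mutant in Cy5 or in Cy3), which makes 16 arrays. The titles and source names of mouse 1 carry different animal numbers, and its arrays were taken as 1 mouse by the animal identifier. The pool is a single control sample, so the spread among wild-type kidneys was not measured, and the arrays of 1 mouse share its RNA.

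PPAR alpha is a receptor for fatty acids and their derivatives that binds DNA as a heterodimer with RXR. In liver, kidney, heart and muscle its activation, by fasting or by fibrate drugs, raises transcripts for fatty acid uptake, omega-hydroxylation in the endoplasmic reticulum, mitochondrial and peroxisomal beta-oxidation, and lipid droplet handling. In kidney such transcripts are mainly a matter of the proximal tubule, which burns fatty acids.

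The receptor dimer binds direct repeats of the hexamer AGGTCA with 1 base between them, so the promoters of the measured members are shown with that hexamer marked. Windows of RefSeq (assembly GRCm38.p6) were matched for 2 of the 4 measured members. Fabp1 lies at chr6:71199629-71199928 on the + strand and Plin2 at chr4:86670010-86670309 on the - strand. Each window runs from 250 bases before the start of the gene to 50 bases after it, 5′ to 3′ on the strand of the gene, with each hexamer in capitals; here each one reads TGACCT, the reverse complement.
Fabp1: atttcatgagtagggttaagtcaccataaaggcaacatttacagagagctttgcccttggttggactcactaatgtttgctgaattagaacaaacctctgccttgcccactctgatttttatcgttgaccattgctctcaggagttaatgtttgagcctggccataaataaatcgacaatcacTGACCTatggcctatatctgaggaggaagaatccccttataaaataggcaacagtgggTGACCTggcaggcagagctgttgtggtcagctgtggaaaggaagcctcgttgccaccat
Plin2: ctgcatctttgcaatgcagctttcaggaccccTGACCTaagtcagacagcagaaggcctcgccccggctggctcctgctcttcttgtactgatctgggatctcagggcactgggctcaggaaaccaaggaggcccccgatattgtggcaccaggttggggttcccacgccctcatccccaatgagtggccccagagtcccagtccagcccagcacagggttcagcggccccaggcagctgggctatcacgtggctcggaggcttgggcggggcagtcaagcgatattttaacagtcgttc

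The Fabp1 window held 2 hexamers, whose first bases lie at -67 and -9 from the start, and the Plin2 window held 1, at -218. The hexamer alone is common: on either strand it stood in 5340 of 32851 windows (16.3%). The exact repeat AGGTCANAGGTCA, which contains the hexamer and in which N is any base, stood in 13 windows (0.0396%) and in neither of these. With 1 letter freed, as AGGNCANAGGTCA, a pattern chosen after the Fabp1 window had been read, it stood in 31 windows (0.0944%), of which Fabp1 was 1 and Plin2 was not. These are matches of letters. Cyp4a14 and Angptl4 are named only.

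Values are log2 ratios of mutant over pool, each array centred on its median; 0 means equal, and a mean of 1 would be a doubling. The direction is inferred rather than stated. It rests on the labels, which put the mutant in channel 1 of each array, and on the signs of the targeted gene given below. Read in this direction, arrays of different mice had a median correlation of 0.14 in the same orientation and -0.11 in opposite orientations. The cause of that difference was not tested. The base of the logarithm was inferred from the values. Each mouse has 1 value, the mean of both dye orientations, and limma tested the mean of 4 mice against 0. The arrays held 19737 to 20228 values each and their medians before centring lay between -0.149 and 0.098. No intensities were used here, so a ratio near 0 cannot be told apart from a spot with little signal, and the labelled tissue cannot be checked by marker levels. In whole tissue, fewer cells of a type and less RNA per cell cannot be told apart either.

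The targeted gene checks the labels. Hsd17b4 had 2 probes that disagreed. Log2 ratios on probe 4590 were -1.69, -1.50, -0.10 and -0.34 in mice 1 to 4, with 14 of 16 arrays below 0. Probe 1446 had 0.02, 0.83, 0.34 and 0.52 in mice 1 to 4, with 13 of 16 arrays above 0. Averaged over both probes, Hsd17b4 had a mean of -0.24 ± 0.45 (SD, n = 4). This is a fold of 0.846, with an interval of 0.635 to 1.13 from the spread between mice. The adjusted p of limma was 0.655, so the test against the pool did not call the targeted gene itself. With the mutant in Cy5 and in Cy3, probe 4590 averaged -0.89 and -0.92, and probe 1446 averaged 0.59 and 0.26. Each mouse kept its sign when the dyes were swapped, except mouse 1 on probe 1446 (0.29 and -0.26). A difference in values that were Cy5 over Cy3 would change sign with the swap. The sources used here do not place these probes on the transcript, so they check the labels only in part.

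None of the 4 measured targets differed from the pool by limma at an adjusted p under 0.05, and all 4 mean ratios lay close to 0. The means were 0.01 for Cyp4a14, 0.10 for Fabp1, -0.05 for Angptl4 and 0.02 for Plin2. At this threshold limma called 0 of 16140 tested genes and unnamed probes (0%). At an unadjusted p under 0.05, 1459 (9.04%) passed, 941 of them above 0 (5.83%) and 518 below 0 (3.21%), and none of the 4 members was among them. If the values were Cy5 over Cy3 on each array, the means would be -0.17 for Cyp4a14, -0.09 for Fabp1, -0.04 for Angptl4 and 0.14 for Plin2, with no member called by limma.

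Cyp4a14 encodes a microsomal cytochrome P450 that hydroxylates fatty acids at the omega end, and in rodents it is among the transcripts most strongly induced by PPAR alpha agonists. Its probe, number 155, is the only probe the annotation gives to a member of the Cyp4a family, whose genes are closely similar; binding of other family members to it was not tested. The log2 ratios were 0.01, 0.11, -0.07 and -0.0033 in mice 1 to 4. The mice thus lay on both sides of 0, within 0.11 of it. The mean was 0.01 ± 0.07 (SD, n = 4), a fold of 1.01 with a 95% interval of 0.911 to 1.12 from the spread between mice, and the adjusted p of limma was 0.953. With the spread between arrays the interval was 0.884 to 1.15.

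The arrays of Cyp4a14 were more scattered than its mice. They ran from -0.47 to 1.15 with a median of 0.04, 9 above 0 and 7 below. The highest was a single array of mouse 2 with the mutant in Cy3, and the other array of that mouse in the same orientation had 0.01. In every mouse the value with the mutant in Cy5 was below that with it in Cy3: mouse 1 had -0.12 against 0.14, mouse 2 -0.36 against 0.58, mouse 3 -0.08 against -0.06 and mouse 4 -0.09 against 0.08. The difference, Cy5 minus Cy3, was -0.35 (SE 0.18) and did not pass limma's test of dye orientation (adjusted p = 0.205). The small values per mouse are therefore averages of readings of opposite sign in 3 of 4 mice.

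Fabp1 encodes the liver type fatty acid binding protein, which carries fatty acids in the cytosol and is also made in proximal tubule. Its log2 ratio was 0.22, 0.03, 0.02 and 0.11 in mice 1 to 4. It was the one measured member above 0 in all 4 mice. The mean was 0.10 ± 0.09 (SD, n = 4), a fold of 1.07 with a 95% interval of 0.961 to 1.19 from mice and 0.942 to 1.21 from arrays, and the adjusted p of limma was 0.638. Among all 16140 means, 77.0% were lower, or 33.7% on the Cy5 over Cy3 reading.

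The 16 arrays of Fabp1 lay between -0.61 and 0.61 with a median of 0.11, 11 above 0 and 5 below. Both extremes came from mouse 2, -0.61 when Cy5 carried the mutant and 0.61 when Cy3 did. With the mutant in Cy5 mouse 1 had -0.0015, and 0.44 with it in Cy3, while mouse 3 had 0.13 and -0.08 in the same order. Averaged over mice, the value was 0.01 when Cy5 carried the mutant and 0.18 when Cy3 did, a difference of -0.17 (SE 0.17; limma adjusted p = 0.505). Fabp1 is abundant in liver, and of 10 liver markers 7 were measured, 3 above 0 and 4 below, with a median of -0.12, a range of -0.22 to 0.13 and none called by limma. Their part in the Fabp1 value was not tested.

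Angptl4 encodes a secreted protein that inhibits lipoprotein lipase and is induced by fatty acids and by fasting. Its log2 ratio was 0.14, -0.19, 0.05 and -0.20 in mice 1 to 4. It was the only measured member with a mean below 0, and 2 mice lay on each side. The mean was -0.05 ± 0.17 (SD, n = 4), a fold of 0.964 with a 95% interval of 0.840 to 1.11 from mice and 0.894 to 1.05 from arrays, and the adjusted p of limma was 0.835.

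Angptl4 had the most repeatable spots of the 5 member probes. The SD between repeats of the same mouse and orientation was 0.144, and only 6.32% of probes had a smaller one; for the other member probes it was 0.322 to 0.520. Its 15 arrays lay between -0.38 and 0.47 with a median of -0.11, 4 above 0, 10 below and 1 at 0; 1 array of mouse 3 with the mutant in Cy3 had no value. All 4 arrays of mouse 2 were below 0, from -0.34 to -0.11, and 3 of the 4 arrays of mouse 4 were below 0 while 1 was at 0. With the mutant in Cy5 mouse 1 had -0.08, and 0.36 with it in Cy3, so its value above 0 came from that second orientation. Limma's F-test over arrays gave an unadjusted p of 0.0673 for differences between the mice (adjusted p = 0.492).

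Plin2 encodes perilipin 2, the coat protein of cytosolic lipid droplets, whose amount tends to follow the lipid stored in a cell. Averaged over both probes, its log2 ratio was -0.19, 0.12, 0.21 and -0.07 in mice 1 to 4. Again 2 mice lay on each side of 0. The mean was 0.02 ± 0.18 (SD, n = 4), a fold of 1.01 with a 95% interval of 0.877 to 1.16 from mice and 0.912 to 1.12 from arrays, and the adjusted p of limma was 0.957.

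The probes of Plin2 disagreed in size and, for mice 2 and 4, in sign. Probe 3377 had -0.25, 0.41, 0.18 and 0.14 in mice 1 to 4, and averaged 0.12 ± 0.27 (SD, n = 4). Probe 19053 had -0.13, -0.18, 0.23 and -0.28 in mice 1 to 4, and averaged -0.09 ± 0.22 (SD, n = 4). Both probes were below 0 in mouse 1 and above 0 in mouse 3, but the mouse 3 value of probe 19053 rests on a single array.

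That array, with the mutant in Cy5, had 1.82, and the other 3 arrays of mouse 3 on probe 19053 had -0.01, -0.60 and -0.28. Over its 16 arrays this probe had a median of -0.24 and 4 values above 0, while probe 3377 had 11 above 0. All 4 arrays of mouse 2 were above 0 on probe 3377, from 0.06 to 1.03, and 3 of 4 were below 0 on probe 19053. Differences between mice reached an unadjusted p of 0.0389 in limma's F-test on probe 3377 alone, and an adjusted p of 0.406. The dye orientations differed by 0.28 for Plin2, Cy5 minus Cy3 (SE 0.14; limma adjusted p = 0.194).

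**Figure D1:**
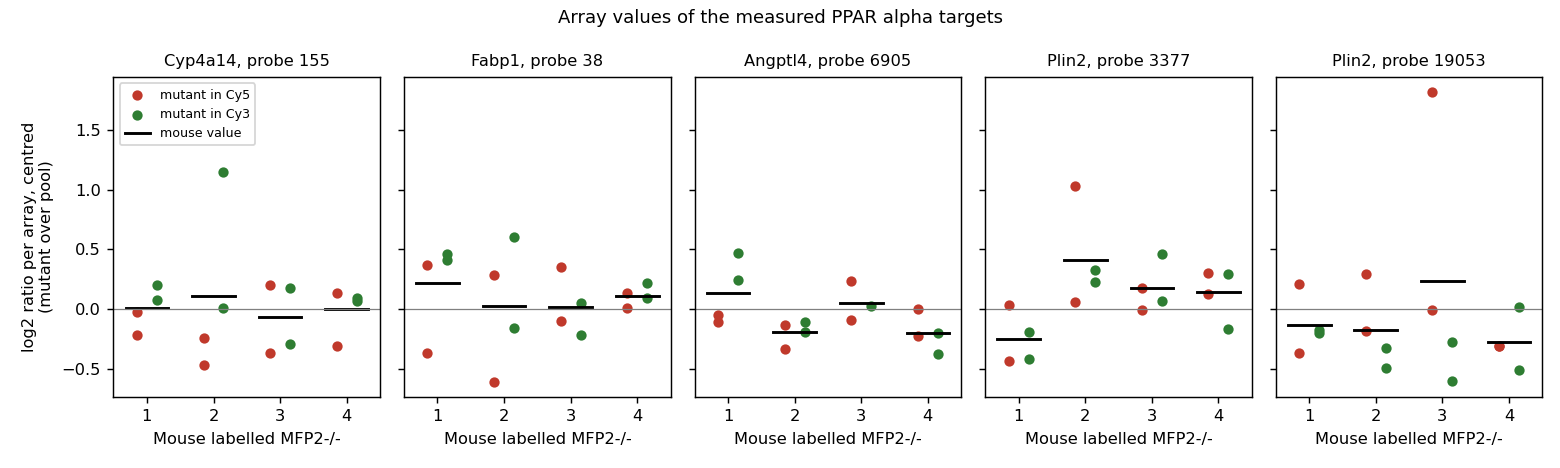
Centred log2 ratios (mutant over pool, vertical axis) of the 5 member probes on each array, by mouse; red points are arrays with the mutant in Cy5, green points arrays with the mutant in Cy3, and black bars the value of each mouse. The bars lie between -0.28 and 0.41 while single arrays reach 1.82 (Plin2, probe 19053) and 1.15 (Cyp4a14).

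The precision of these means decides what they could have shown. The 95% interval of limma reached 0.15 to either side of the mean for Cyp4a14 and for Fabp1, and 0.20 for Angptl4 and for Plin2; the median over all 16140 was 0.19. All 4 members had an interval lying wholly within 0.5 of 0, as did 14101 of 16140 (87.4%), so such an interval is common on these arrays. Taking the wider of the mouse and array intervals on each side, folds from 0.840 to 1.21 remained within reach for the 4 genes, and a doubling lay outside the interval of each. These intervals hold no error of the pool and none for compression of the ratio on a spot with little signal.

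**Figure D2:**
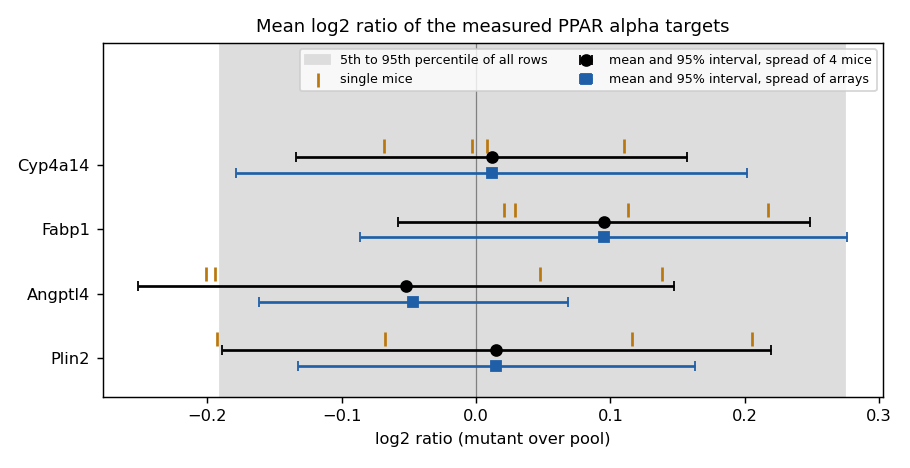
Mean log2 ratio (mutant over pool, horizontal axis) of the 4 measured members with 95% intervals from the spread of 4 mice (black) and of the arrays (blue), the single mice as orange ticks, and the 5th to 95th percentile of all 16140 means as a grey band, from -0.19 to 0.27. Every interval includes 0, and every mean lies inside the band.

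As a group the 4 members had 3 means above 0 and 1 below, against 8086 of 16140 above 0 (50.1%), and their median log2 ratio was 0.01 against 0.00 for all. By mouse the median of the members was 0.07, 0.07, 0.03 and -0.04 in mice 1 to 4. The members did not order the mice alike: Fabp1 and Angptl4 were highest in mouse 1, Cyp4a14 in mouse 2 and Plin2 in mouse 3. Repeats, numbered 1 and 2 in the titles, gave different pictures. With repeat 1 alone the median of the members was -0.09 and 1 of 4 was above 0, and with repeat 2 alone it was 0.09 and all 4 were above 0. The difference between repeats was not tested.

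Between mice, limma's F-test called none of the 4 members, against 30 of 15856 overall (0.189%), and none reached an unadjusted p under 0.05, against 1776 (11.2%). Between dye orientations limma called none of the 4, against 1332 (8.4%).

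The regulators of the pathway showed no call either. Of 18 listed receptors and cofactors 11 were measured, 6 above 0 and 5 below, with a median of 0.01. Ppara itself, which encodes the receptor, had 0.04, 0.17, 0.14 and 0.07 in mice 1 to 4. It was above 0 in all 4 mice, with a mean of 0.10 ± 0.06 (SD, n = 4; limma adjusted p = 0.599). Its mean was 0.21 when Cy5 carried the mutant and -0.0043 when Cy3 did.

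Ppard, which encodes the related receptor PPAR delta, had -0.39, -0.33, -0.21 and -0.07 in mice 1 to 4. It was the only regulator with an unadjusted p under 0.05 (0.0148), and its adjusted p in limma was 0.548. Over all genes and unnamed probes, 3.21% reached that unadjusted p below 0. The coactivator Ppargc1a had a mean of 0.19 ± 0.31 with mouse 1 at -0.18 and mouse 2 at 0.58, and the coactivator Ncoa2 had 0.09 ± 0.17. Ppargc1b, a coactivator related to Ppargc1a, had -0.09 ± 0.10 and the acetyltransferase gene Crebbp -0.07 ± 0.22 (SD, n = 4 each).

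Other PPAR alpha targets outside the peroxisome had no call, and their counts are given for both readings of the ratios. On the Cy5 over Cy3 reading, a gene with equal mutant over pool values in both orientations averages 0. Of 40 listed 27 were measured, 21 above 0 and 6 below (77.8% above, against 50.1% of all). Their median was 0.08, with a range of -0.14 to 0.35. None passed limma's adjusted threshold; 7 reached an unadjusted p under 0.05 above 0 (25.9%, against 5.83% of all) and none below. Read as Cy5 over Cy3, 17 were above 0 and 10 below (63%, against 45.6% of all) with a median of 0.03; 1 then reached that p above 0 (3.7%, against 6.65% of all) and 4 below (14.8%, against 13.5% of all). Slc22a5, the carnitine transporter OCTN2 of the plasma membrane, had 0.32, 0.32, 0.28 and 0.25 in mice 1 to 4.

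The 4 mice differed little in Slc22a5, which had a mean of 0.29 ± 0.03 (SD, n = 4). In limma its unadjusted p was 0.00182 and its adjusted p 0.548. Slc22a5 had 0.31 when the mutant was in Cy5 and 0.28 when it was in Cy3, so its mean read as Cy5 over Cy3 was 0.016. Etfdh, which passes electrons of mitochondrial beta-oxidation to the respiratory chain, had 0.34 ± 0.17, with 0.08 when the mutant was in Cy5 and 0.60 when it was in Cy3. Retsat, a retinol saturase, had 0.24 ± 0.11, with 0.05 and 0.43 in the same order. At the other end lay Cidea, a lipid droplet protein, with -0.14 ± 0.09, the fatty acid transporter Slc27a1 with -0.14 ± 0.30, and the desaturase Scd1 with -0.05 ± 0.37 (SD, n = 4 each).

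Peroxisomal targets, listed for comparison, numbered 16 measured of 23, with a median of 0.13. Above 0 lay 13 and below 3 (81.2% above, against 50.1% of all). None was called; 6 reached an unadjusted p under 0.05 above 0 (37.5%, against 5.83% of all) and none below. Read as Cy5 over Cy3, 10 were above 0 and 6 below (62.5% above, against 45.6% of all) with a median of 0.03. In each direction 2 reached that p (12.5% each, against 6.65% of all above 0 and 13.5% below). Slc27a2, which activates very long chain fatty acids in peroxisomes and endoplasmic reticulum, had a mean of 0.41 ± 0.23 and the thiolase gene Acaa1a 0.34 ± 0.23 (SD, n = 4 each), each above 0 in every mouse; read as Cy5 over Cy3 the means were 0.03 and 0.19 in the same order. Pex11a, a peroxisome proliferation factor, had 0.84 ± 0.52 (SD, n = 3). With the mutant in Cy5 it had 0.19 and with it in Cy3 1.72, each over the mice with a value in that orientation. Mouse 1 had no value with the mutant in Cy5. It is not in the mean of 0.84, but it is in the Cy3 value. The lowest were Tysnd1 with -0.15 ± 0.17, Nudt19 with -0.11 ± 0.16 and catalase, Cat, with -0.03 ± 0.08 (SD, n = 4 each).

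**Figure D3:**
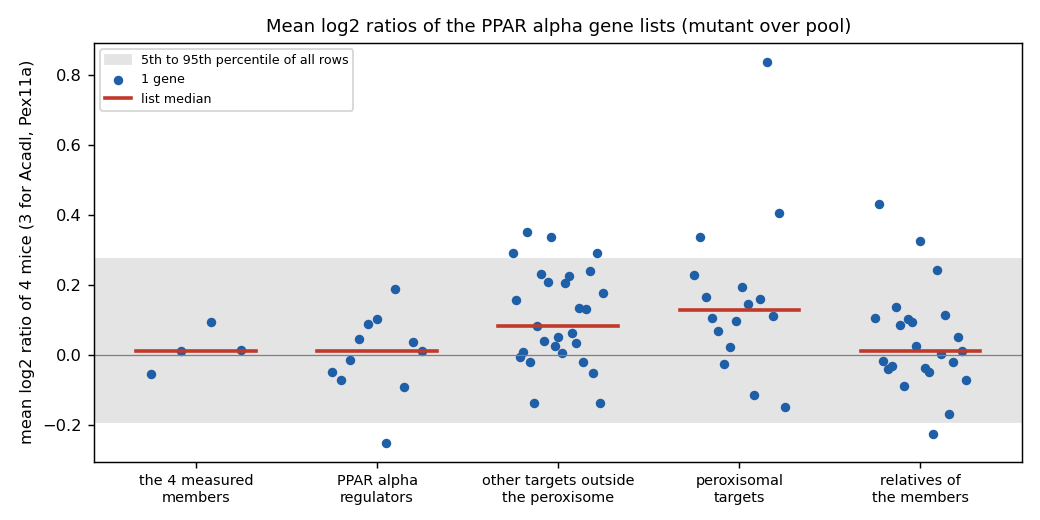
Mean log2 ratio (mutant over pool, vertical axis) of every measured gene in the member list and 4 related lists; each blue point is 1 gene, red bars are list medians and the grey band is the 5th to 95th percentile of all 16140 means. The medians are 0.01 for members, 0.01 for regulators, 0.08 for other targets outside the peroxisome, 0.13 for peroxisomal targets and 0.01 for relatives of the members.

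By mouse the median of the other targets outside the peroxisome was 0.02, 0.22, 0.10 and 0.11 in mice 1 to 4. Kidney epithelium and podocyte markers are set beside it: 10 of 18 were measured, 8 above 0 and 2 below, with a range of -0.20 to 0.66 and medians of -0.05, 0.37, 0.12 and 0.28 in mice 1 to 4. Both lists had their lowest median in mouse 1 and their highest in mouse 2. Among those markers Slc12a1, of the thick ascending limb, had a mean of 0.56, the collecting duct water channel Aqp2 0.46 and the proximal tubule receptor Cubn 0.24. Slc34a1, a phosphate transporter of the proximal tubule, had -0.20 and was below 0 in all 4 mice, and Umod, of the thick ascending limb, had -0.15, so markers of these segments lay on both sides of 0. None was called by limma against the pool. At an unadjusted p under 0.05 in limma, 5 of the 10 lay above 0 (50%, against 5.83% of all) and 1 below (against 3.21% of all). Slc34a1 and Umod were named after their values were seen. Read as Cy5 over Cy3, the median over these markers was 0.07, against 0.23 as mutant over pool. Their part in the target lists was not tested. Miox, a proximal tubule enzyme, was named after its values were seen, because it was the one gene of these lists called between mice, with -0.25, 1.25, 0.67 and 0.98 in mice 1 to 4 (limma F-test adjusted p = 0.033).

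**Figure D4:**
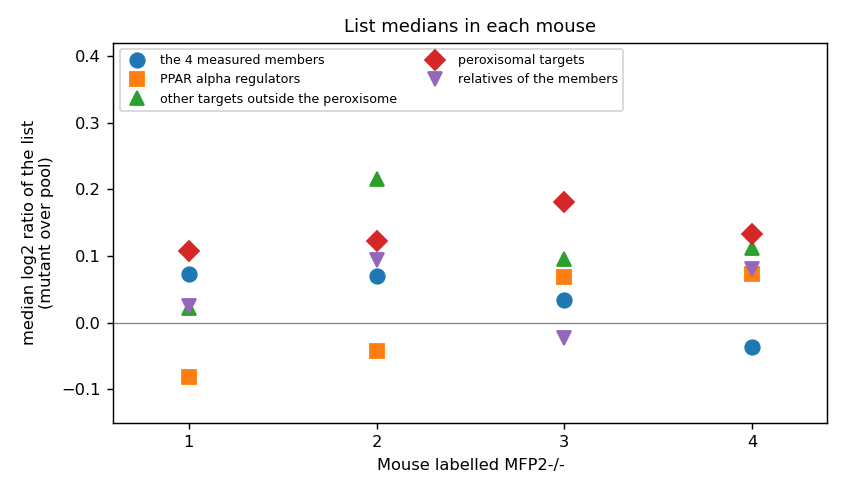
Median log2 ratio (mutant over pool, vertical axis) of each list in each of the 4 mice. The members lie between -0.04 and 0.07, the other targets outside the peroxisome between 0.02 and 0.22 and the peroxisomal targets between 0.11 and 0.18.

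Relatives of the members, the other genes of their families, had 23 measured of 42, 13 above 0 and 10 below, with a median of 0.01 and a range of -0.22 to 0.43; limma called none. Of the 23, 3 reached an unadjusted p under 0.05 in limma above 0 (13%, against 5.83% of all) and 1 below (against 3.21% of all). Read as Cy5 over Cy3, 1 reached that p above 0 (4.35%, against 6.65% of all) and 5 below (21.7%, against 13.5% of all). The 4 with the smallest p were Pdk2, Plin3, Acot7 and Fabp4. Pdk2, a kinase of pyruvate dehydrogenase like the unmeasured Pdk4, had a mean of 0.24 ± 0.17. Plin3, a perilipin found on nascent droplets, had -0.17 ± 0.09 and was below 0 in every mouse. Acot7, a cytosolic acyl-CoA thioesterase, had 0.43 ± 0.43, and Fabp4, the fatty acid binding protein of adipocytes, 0.33 ± 0.32 (SD, n = 4 each). With the mutant in Cy5 and in Cy3, Acot7 had 0.12 and 0.74, and Fabp4 had 0.36 and 0.29. Read as Cy5 over Cy3 the means were -0.31 for Acot7 and 0.04 for Fabp4.

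Fabp4 is also an adipocyte marker. Of 11 adipocyte markers 8 were measured, 5 above 0 and 3 below, with a median of 0.10 and a range of -0.13 to 0.33, and none was called by limma. At an unadjusted p under 0.05 in limma, 3 of the 8 lay above 0 (37.5%, against 5.83% of all) and none below. Read as Cy5 over Cy3, 3 of the 8 reached that p below 0 (37.5%, against 13.5% of all) and none above. On that reading the median was -0.14. With the mutant in Cy5, 2 of the 8 lay above 0, and with it in Cy3, 7 did. Adig and Car3, with means of 0.27 each, had the smallest p besides Fabp4. With the mutant in Cy5 and in Cy3, Adig had -0.07 and 0.60 and Car3 had 0.35 and 0.18. Of 14 macrophage and leukocyte markers 10 were measured, 4 above 0 and 6 below, with a median of -0.02 and a range of -0.12 to 0.27; the 3 with the smallest p were C1qb with 0.27, C1qc with -0.12 and Fcer1g with 0.11. Both cell types express Plin2 or its relatives, and their part in those values was not tested. Of the macrophage and leukocyte markers 1 passed that unadjusted p above 0 (10%) and none below. Of 7 liver markers 2 passed it below 0 (against 3.21% of all) and none above. Liver markers with the smallest p were Apoa1 with -0.22, Tat with -0.18 and Apoa2 with -0.13.

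Transcripts that respond to fasting and glucocorticoids, which also raise several of the members, had 9 measured of 17, 4 above 0 and 5 below, with a median of -0.01 and a range of -0.21 to 0.06. Limma called none of them. At an unadjusted p under 0.05 in limma, 1 of the 9 lay below 0 (against 3.21% of all) and none above. Read as Cy5 over Cy3, 8 were above 0 and 1 below (88.9% above, against 45.6% of all), with a median of 0.04. On that reading 1 reached that p above 0 (11.1%, against 6.65% of all) and none below.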

How the data were processed

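The authors deposited log2 ratios, 1 for each probe on each array; the base was inferred here, and the sources used here do not state background correction, normalisation or direction. Probes were named by the platform annotation, updated through RefSeq (GRCm38.p6): 14030 of 20355 had 1 symbol, 5 several and 6320 none. Values over 10 in absolute size (510 spots, none on a member probe) were set to missing and each array was centred on its median. Arrays were averaged within dye orientation and mouse, then over orientations; probes lacking an orientation in more than 1 mouse were dropped, and probes of 1 symbol were averaged, which left 9846 genes and 6294 unnamed probes. Limma 3.58.1 in R 4.3.3 (lmFit, eBayes, two-sided, Benjamini-Hochberg at 0.05) tested 4 mice against 0; a fit on all arrays with mouse and dye terms gave the tests between mice and orientations. Precision is limited by the 4 mice and the 1 pool, and the arrays of 1 mouse share its RNA. The procedure was tested on simulated data with independent noise on each array. Random spread between mice and shifts as small as the member means were not simulated. Alternatives changed centring, scaling, missing values, averaging, orientation, repeat, direction, model (statmod 1.5.0 for the random block), prior, probes and mice; turning the direction for the gene lists was added after seeing the data. Members and lists were chosen with earlier results of these data known. Genes named are every member, the 3 with the smallest unadjusted p in each direction among regulators and each target list, 4 relatives, 3 markers of each cell type, and Hsd17b4.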

Additional observations from a re-analysis of the deposited data

Results flagged for a closer look

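In 2 of 57 sets of mouse values examined, 1 mouse stood far from the other 3, by Dixon's criterion at 95%; chance gives this in about 1 in 20 groups. Acot7, the acyl-CoA thioesterase related to Acot1, had a log2 ratio of 1.08 in mouse 2, while the other mice had 0.19 to 0.25. Apoa1, a liver marker, had -0.27 in mouse 4, while the others had -0.22 to -0.20. Limma's F-test over arrays called neither gene between mice. Its unadjusted p was 0.570 for Acot7 and 0.982 for Apoa1. Cyp4a14, Fabp1, Angptl4 and Plin2 had no such mouse. The sets examined are the genes and probes named in the report and the list medians, not every gene of the lists.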

How the results depend on the processing

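No paired analysis was possible because all 16 arrays set 1 group of mice against 1 pool. No alternative run brought a measured member past limma's adjusted threshold: the adjusted p ran over 0.314 to 0.986 for Cyp4a14, 0.422 to 0.971 for Fabp1, 0.614 to 0.996 for Angptl4 and 0.296 to 0.999 for Plin2. Signs were less steady. Cyp4a14 turned to -0.0038 without centring, -0.017 with medians within mice, -0.16 with the mutant in Cy5 alone, -0.092 in repeat 1, -0.17 with values read as Cy5 over Cy3 and, without single mice, ran over -0.021 (without mouse 2) to 0.038. Fabp1 turned to -0.087 with values read as Cy5 over Cy3, and Angptl4 to 0.018 in repeat 2. Plin2 turned to -1.6e-04 without centring, -0.073 with medians, -0.12 with the mutant in Cy3 alone, -0.094 in repeat 1 and -0.089 on probe 19053 alone; without single mice it ran over -0.048 (without mouse 3) to 0.085, with -0.019 without mouse 2. The median of the members was -0.041 with medians, -0.041 with Cy5 alone, 0.084 with Cy3 alone, -0.093 in repeat 1, 0.091 in repeat 2 and -0.062 with values read as Cy5 over Cy3; leaving out a mouse gave -0.012 to 0.034. The number of members above 0, 3 as reported, was 1 without centring, with medians, in repeat 1 and as Cy5 over Cy3, 2 with either orientation alone, 4 in repeat 2, and 1 to 3 without a mouse (1 without mouse 2). Over all genes and unnamed probes, calls against the pool, 0 as reported, were 3 with Cy5 alone, 1 with Cy3 alone and 12 as Cy5 over Cy3. With the mouse as a random block they were 258, at an estimated correlation of -0.011. At that correlation the block model counts the 16 arrays almost as separate replicates, and it holds no dye term. Leaving out a mouse gave 0. Calls between mice, 30 as reported, were 16 with scaled arrays, 51 with probes measured on all arrays, 2 as Cy5 over Cy3 and 48 with each probe on its own, and 5 to 13 without a mouse (5, 12, 7 and 13 without mice 1 to 4); the other alternatives gave 28 to 30. Calls between dye orientations, 1332 as reported, were 2740 without centring, 260 as Cy5 over Cy3 and 44 to 2701 without a mouse; without mouse 2 they were 2701 and without mouse 1, 3 or 4 they were 46, 44 and 75; the other alternatives gave 1159 to 1693. The cause of these changes was not tested. Signal over background is unknown.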

Other observations

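Genes whose 4 mouse values lay closest to those of a member were listed for Plin2, which had the largest SD between mice, and for Fabp1, which had the largest mean in absolute size. Over 9679 named genes measured in the same mice, the closest to Plin2 were Stk38l, with a root mean square difference of 0.01, Rnf6 with 0.02 and Psg16 with 0.03. The closest to Fabp1 were Strada, Kif20a and Spint2, each with 0.02. With 4 mice and so many genes compared, close matches of this kind are a description of these values.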
